A study of Mus musculus with 6 samples.

Results

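The myogenic regulatory factors Myog, Myod1, Myf5 and Myf6 were examined together with the E proteins Tcf3, Tcf4 and Tcf12, with which they pair, and the inhibitors Id1, Id2 and Id3, which hold E proteins away from them. These 10 genes were taken by name from the 23231 genes with counts in at least 1 library, by family and not by their measured values. The comparison asked whether the partners and inhibitors of the myogenic factors changed along with them when an enhancer of Myog was repressed. It was made by RNA-Seq of C2C12 cells, a mouse myoblast line whose cells fuse into myotubes once serum is lowered. The dCas9-KRAB group (n = 3 libraries) expressed a nuclease-dead Cas9 joined to the KRAB repressor domain, without an sgRNA to an enhancer. The dCas9-KRAB-En5 group (n = 3 libraries) expressed the same protein plus sgRNAs against the enhancer Myog-En5. Both groups received lentivirus at a multiplicity of infection of 100, were selected with 2 µg/ml puromycin, and were kept in 2% horse serum until day 5 of differentiation, when poly(A) RNA was collected. The construct drove the sgRNA from a U6 promoter and dCas9-KRAB from a ubiquitin C promoter, so the repressor was not limited to muscle cells. The sources used here do not say whether the replicates were separate transductions, so p-values measure only the spread between these libraries.

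Myogenic regulatory factors are basic helix-loop-helix proteins. They bind DNA as dimers with an E protein at E-boxes, sites with the letters CANNTG, and switch on muscle genes. Myf5 and Myod1 act early, in committed myoblasts, Myog acts as cells begin to differentiate, and Myf6 acts late. E proteins are present in most cell types and also pair with factors of other lineages. Id proteins have the helix-loop-helix but lack the basic region, so a dimer of an Id with an E protein does not bind DNA, and in proliferating myoblasts Id proteins are known to hold back differentiation.

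The sequences targeted by the sgRNAs are shown first, since they define the contrast. Myog-En5 spans chr1:134283085-134283603 in GRCm38, and its end lies 6386 bp before the annotated first base of Myog. In the target sequences below, 5′ to 3′, the capitals mark the PAM that Cas9 needs beside its target.
Myog-En5-sgRNA1: gaaggggttactgtcggcagAGG
Myog-En5-sgRNA2: gaccggaagattgaaccactGGG
Target 1 is on the positive strand at chr1:134283252-134283274 and target 2 on the negative strand at chr1:134283558-134283580, both inside Myog-En5.

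The promoter of Myog shows the kind of site that these factors bind. The line below gives the 250 bases before the RefSeq start site of Myog (GRCm38.p6, chr1:134289754-134290003, positive strand), with each CANNTG in capitals.
Myog promoter: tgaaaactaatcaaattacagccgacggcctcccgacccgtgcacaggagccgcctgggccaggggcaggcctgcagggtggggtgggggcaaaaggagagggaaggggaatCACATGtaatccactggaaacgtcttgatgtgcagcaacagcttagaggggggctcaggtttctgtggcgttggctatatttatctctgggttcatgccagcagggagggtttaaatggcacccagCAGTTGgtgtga
The first match, CACATG, began 138 bases before the start site and the second, CAGTTG, began 12 bases before it. The second lies past the GENCODE start of Myog, which is upstream of the RefSeq one. CANNTG reads the same on both strands, and 66.2% of 32851 promoter windows of 250 bases held at least 1 match. RefSeq windows were counted for 6 of the 10 genes, and the other genes were not examined for CANNTG. The windows of Myf5 and Id3 held no CANNTG, that of Tcf3 held 1, that of Id2 held 1, which was a CAGCTG, and the 3 windows of Tcf12 held 1, 1 and 0. CAGCTG itself occurred in 4271 of all windows.

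The libraries held between 31831093 and 73988425 counts, and the floor of 3 counts used for undetected genes was 0.0405 to 0.0942 CPM (counts divided by the library total and multiplied by 1000000), a limit that covers counting error alone. Only 13991 genes had counts in dCas9-KRAB-En5 replicate 3, against 17084 to 19395 in the other libraries, so results are also given without it where it mattered. The labelled cell type was checked against markers. Desmin (Des), the muscle intermediate filament, stood at 383 to 1577 TPM (counts per length, scaled to 1000000 in each library) in dCas9-KRAB and 5.31 to 13.9 TPM in dCas9-KRAB-En5. Pax7, the factor of muscle stem cells, reached at most 0.0302 TPM in any library. The 12 myoblast markers listed summed to 544 to 2007 TPM in dCas9-KRAB and 86.9 to 367 TPM in dCas9-KRAB-En5. Not all of them were lower. Sdc4 had 37.9 to 56.1 TPM in dCas9-KRAB and 43.0 to 350 TPM in dCas9-KRAB-En5. Pax3 had 0.173 to 0.544 and 0.487 to 1.86 TPM, and both overlapped between the groups. Macrophage markers, which the label does not call for, were high in all 6 libraries. The 18 genes of the list summed to 6722 to 8752 TPM in dCas9-KRAB, where 10 to 11 of them reached 10 TPM, and to 13708 to 21733 TPM in dCas9-KRAB-En5, where 11 to 12 did. Lyz2 alone gave 1896 to 4815 and 6938 to 13210 TPM of these sums. Csf1r, the receptor for the macrophage growth factor, ranged from 132 to 443 TPM and from 186 to 668 TPM. C1qa was near 0 in both groups, with at most 0.514 TPM in dCas9-KRAB and 0 in all dCas9-KRAB-En5 libraries. These are bulk libraries, so fewer cells of a type and less RNA per cell cannot be told apart in any value below.

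Myog, Myod1 and Myf5 fell to near 0 in dCas9-KRAB-En5 cells, while the E protein and Id genes were still expressed there and Tcf4 rose. Fold changes are dCas9-KRAB-En5 over dCas9-KRAB, and a call needed both an adjusted p no higher than 0.01 in the quasi-likelihood test of edgeR and a log2 fold change of 1 or more in size. Of the 10 genes, 9 passed the filter on low counts, and 4 of these 9 were called, 3 lower and 1 higher. Across all 14378 genes tested 6.19% were called, 4.67% lower and 1.52% higher. With total counts in place of TMM scaling the split of all calls moved from 671 lower and 219 higher to 516 lower and 70 higher.

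**Figure D1:**
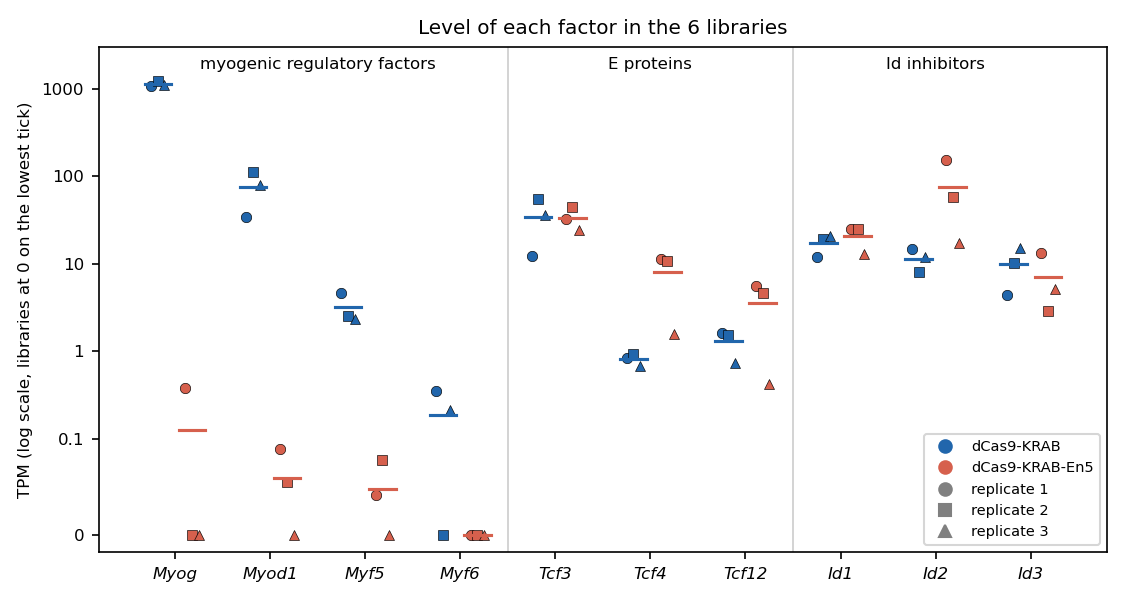
TPM (log scale) of the 10 genes in each library, with dCas9-KRAB in blue and dCas9-KRAB-En5 in red; markers give the replicate, horizontal lines the group means, and libraries at 0 sit on the lowest tick. Myog, Myod1 and Myf5 were lower in every dCas9-KRAB-En5 library than in every dCas9-KRAB library, Tcf4 and Id2 were higher, and the other genes overlapped between the groups.

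Myog (ENSMUSG00000026459, chromosome 1, 134289989 to 134292548, plus strand), the factor whose enhancer was targeted, had 1065, 1224 and 1118 TPM in dCas9-KRAB replicates 1 to 3. In dCas9-KRAB-En5 it had 0.379 TPM, from 12 counts, in replicate 1 and 0 counts in replicates 2 and 3. It was the highest of the 10 genes in dCas9-KRAB, at 1136 ± 80.9 TPM (SD, n = 3), and the groups did not overlap. With the libraries at 0 set to a floor of 3 counts, dCas9-KRAB-En5 was at least 6869-fold lower. The fitted log2 fold change was -13.35 (SE 1.24, edgeR adjusted p = 5.34e-05), and its size rests on the 12 counts of replicate 1. Without that library the fit gave -18.64 (adjusted p = 1.43e-06), a value against 0 counts that is no bound, and the floor gave at least 10513-fold.

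Myod1 (ENSMUSG00000009471, chromosome 7, 46376474 to 46379099, plus strand), which commits cells to the muscle lineage, had 33.8, 111 and 79.2 TPM in dCas9-KRAB and 0.0761, 0.0317 and 0 TPM, or 3, 1 and 0 counts, in dCas9-KRAB-En5. Its level varied more among the control libraries than that of Myog did, at 74.5 ± 38.6 TPM (SD, n = 3). Against the floor of 3 counts per library dCas9-KRAB-En5 was at least 951-fold lower (edgeR adjusted p = 1.82e-05). Myod1 lies on another chromosome than the targeted enhancer.

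Myf5 (ENSMUSG00000000435, chromosome 10, 107482908 to 107486134, minus strand), the earliest of the family in the embryo, had 4.67, 2.54 and 2.30 TPM in dCas9-KRAB and 1, 2 and 0 counts in dCas9-KRAB-En5. It was at least 47.0-fold lower (edgeR adjusted p = 0.000659), and the groups did not overlap. Without dCas9-KRAB replicate 1, where it was highest, it missed the cutoff (adjusted p = 0.0115).

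Myf6 (ENSMUSG00000035923, chromosome 10, 107492853 to 107494737, minus strand), the late factor found in mature fibres, lies 6719 bp from Myf5. It had 12, 0 and 12 counts in dCas9-KRAB, at most 0.350 TPM, and 0 counts in all dCas9-KRAB-En5 libraries. It did not pass the filter and was not tested, and a difference was not detectable at this depth (exact permutation test of TPM, two-sided, p = 0.4). The same exact permutation test gave p = 0.1 for Myog, Myod1 and Myf5, the smallest p that 3 against 3 libraries allow.

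Tcf3 was the main E protein per length in every library and showed no detectable difference between the groups. That rank depends on the exon lengths used. In counts Tcf4 exceeded Tcf3 in dCas9-KRAB-En5 replicates 1 and 2, at 6634 and 5044 against 2774 and 3014. Tcf3 (ENSMUSG00000020167, chromosome 10, 80409514 to 80433647, minus strand) had 12.3, 55.5 and 35.6 TPM in dCas9-KRAB and 32.4, 44.0 and 24.0 TPM in dCas9-KRAB-En5. The dCas9-KRAB-En5 libraries all fell inside the range of the controls, which was wide. The log2 fold change was -0.15 with a 95% interval of -1.29 to 0.99 (edgeR adjusted p = 0.871), and its sign turned with the replicate block, at 0.03.

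Tcf4 was the only one of these 6 partner and inhibitor genes that was called. Tcf4 (ENSMUSG00000053477) is the E protein of that name on chromosome 18, not the Wnt effector that shares the alias. It had 0.840, 0.929 and 0.682 TPM in dCas9-KRAB and 11.4, 10.9 and 1.58 TPM in dCas9-KRAB-En5. These values rest on 624, 952 and 836 counts and on 6634, 5044 and 988 counts. The groups did not overlap, although dCas9-KRAB-En5 replicate 3 stood much closer to the controls than replicates 1 and 2 did. The log2 fold change was 2.88 (SE 0.53, edgeR adjusted p = 0.00453). The call was kept without any dCas9-KRAB-En5 library, but it was lost with 1 control library fewer (adjusted p 0.0361, 0.0323 and 0.0371 without dCas9-KRAB replicates 1, 2 and 3), with total counts as the only scaling (0.0113), and in limma on log2(TPM + 1) (0.0883).

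Tcf12 (ENSMUSG00000032228, chromosome 9, 71842688 to 72111871, minus strand), the third E protein, had 1.61, 1.54 and 0.723 TPM in dCas9-KRAB and 5.61, 4.64 and 0.425 TPM in dCas9-KRAB-En5. Replicates 1 and 2 of dCas9-KRAB-En5 were above all controls and replicate 3 was below them all. The log2 fold change was 1.02 with a 95% interval of -0.32 to 2.36 (edgeR adjusted p = 0.274), and without dCas9-KRAB-En5 replicate 3 it was 1.39 (adjusted p = 0.0204). The counts were 680, 895 and 503 in the controls, then 1847, 1223 and 151. The annotated span of Tcf12 overlaps 11 other genes, 4 of them on the opposite strand, and whether the counting used strand is not given in the sources used here.

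The Id genes showed no common direction. Id1 (ENSMUSG00000042745, chromosome 2, 152736251 to 152737410, plus strand), a classic target of BMP signalling, had 11.8, 19.0 and 20.7 TPM in dCas9-KRAB and 24.7, 24.8 and 12.7 TPM in dCas9-KRAB-En5. Between 338 and 1073 counts lay behind each value. The groups overlapped, and the log2 fold change of 0.08 had a 95% interval of -0.89 to 1.05 (edgeR adjusted p = 0.919).

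Id2 (ENSMUSG00000020644, chromosome 12, 25093799 to 25097140, minus strand), which also acts in immune cell lineages, had 14.5, 8.04 and 11.8 TPM in dCas9-KRAB and 153, 57.5 and 17.3 TPM in dCas9-KRAB-En5. The counts behind them were 961, 734 and 1285 and 7908, 2377 and 964. Per length and library, every dCas9-KRAB-En5 value was above every control, and replicate 3 was again the one nearest to them. The log2 fold change was 2.34 with a 95% interval of 1.03 to 3.65, and it missed the cutoff in the main test (edgeR adjusted p = 0.0215). It passed with the replicate block (2.13, adjusted p = 0.00624) and in DESeq2 (2.27, adjusted p = 0.00144), which called 3.94% and 5.88% of all genes tested as higher. Without dCas9-KRAB-En5 replicate 1 the log2 fold change was 1.47 (edgeR adjusted p = 0.115), and without replicate 3 it was 2.60 (adjusted p = 0.00292).

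Id3 (ENSMUSG00000007872, chromosome 4, 136143497 to 136145755, plus strand), also induced by BMPs, had 4.40, 10.3 and 15.1 TPM in dCas9-KRAB and 13.1, 2.90 and 5.10 TPM in dCas9-KRAB-En5. These came from 214, 689 and 1211 counts and from 497, 88 and 209 counts. The groups overlapped, with a log2 fold change of -0.60 and a 95% interval of -2.05 to 0.84 (edgeR adjusted p = 0.562). Id4, the remaining gene of the family, was looked for by name and was not analysed here.

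**Figure D2:**
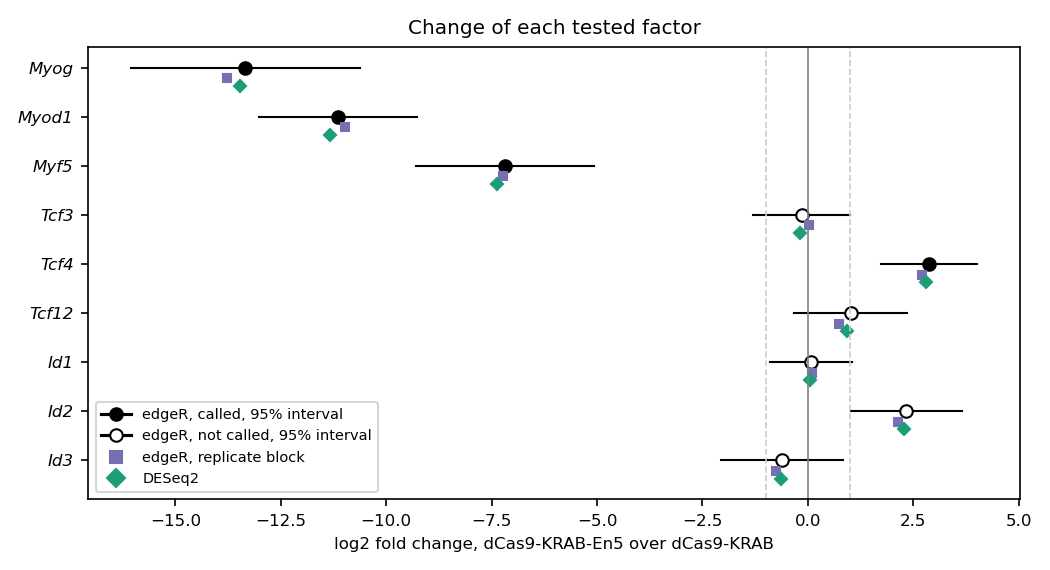
Log2 fold change of the 9 tested genes, dCas9-KRAB-En5 over dCas9-KRAB: circles with 95% intervals are the edgeR estimates (filled where called), squares the fit with the replicate block, diamonds DESeq2, and dashed lines the fold cutoff. Myog, Myod1 and Myf5 lay far to the left, Tcf4 and Id2 at 2.88 and 2.34, and the intervals of Tcf3, Tcf12, Id1 and Id3 spanned 0.

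By separation of the libraries, 5 of the 10 genes had groups that did not overlap in TPM, 3 lower and 2 higher in dCas9-KRAB-En5. Among all genes tested, 19.7% were lower and 7.76% higher in every dCas9-KRAB-En5 library. The exact permutation test gave its smallest p, 0.1, for Tcf4 and Id2 as well, and 1 for Tcf3, 0.4 for Tcf12, 0.5 for Id1 and 0.6 for Id3. Macrophage markers did not all move with Tcf4 and Id2. Their sum was 2.26-fold higher in dCas9-KRAB-En5 by group means and 1.54-fold higher without Lyz2, while Tcf4 was 9.74-fold and Id2 6.64-fold higher in mean TPM. Of 15 macrophage markers tested 10 had a log2 fold change above 0 and 5 below 0, with a median of 0.56. The one called was Adgre1, at 2.68 (edgeR adjusted p = 0.00706). Adgre1 was 8.34-fold higher in mean TPM. Itgam, at 2.75, was not called (edgeR adjusted p = 0.0151) but passed with the replicate block (adjusted p = 0.00499). Its mean went from 3.85 to 36.3 TPM, with overlapping groups. Lyz2, Ptprc and Cd14 had 1.70, 1.55 and 1.14 (edgeR adjusted p = 0.0869, 0.0662 and 0.176), and Cybb and Laptm5 0.67 and 0.49. Tyrobp, Csf1r and Cd68 had log2 fold changes of 0.56, 0.32 and 0.96 (adjusted p = 0.569, 0.702 and 0.179). Fcgr1 (-1.84, adjusted p = 0.0178) and Aif1 (-1.63, adjusted p = 0.175) were lower in every dCas9-KRAB-En5 library than in every control without being called, and C1qb, Spi1 and Fcer1g had -2.03, -0.32 and -0.16 with overlapping groups. The part of these cells in the values of Tcf4 and Id2 was not tested.

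The make-up of each family was compared within libraries from summed TPM, with no test. The myogenic factors summed to 1104, 1337 and 1200 TPM in the control libraries and in dCas9-KRAB-En5 to 0.478, 0.0883 and 0 TPM. The E proteins summed to 14.7, 57.9 and 37.0 TPM and to 49.5, 59.5 and 26.0 TPM, and the ranges overlapped. The Id genes summed to 30.8, 37.4 and 47.5 TPM and to 191, 85.2 and 35.1 TPM, so that 2 dCas9-KRAB-En5 libraries exceeded all controls and replicate 3 did not. Within the E proteins, the share of Tcf4 was 5.70%, 1.60% and 1.84% in dCas9-KRAB and 23.1%, 18.3% and 6.06% in dCas9-KRAB-En5, and Tcf3 held 65.5% or more of the sum in every library. Within the Id genes, Id2 held 47.2%, 21.5% and 24.8% of the sum in dCas9-KRAB and 80.2%, 67.5% and 49.2% in dCas9-KRAB-En5. Id2 had the highest level of the 3 in every dCas9-KRAB-En5 library, and Id1 in 2 of 3 controls.

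**Figure D3:**
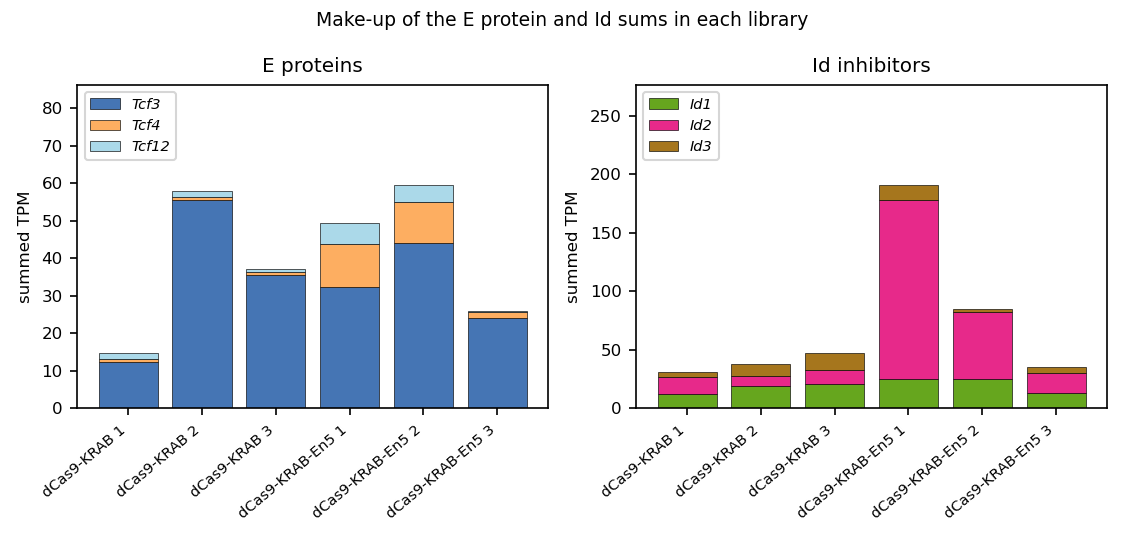
Summed TPM of the E proteins (left) and the Id inhibitors (right) in each library, stacked by gene. Tcf3 made up most of every E protein bar, and the pink Id2 segment was 153 and 57.5 TPM in dCas9-KRAB-En5 replicates 1 and 2 against 17.3 TPM in replicate 3 and 8.04 to 14.5 TPM in the controls.

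Ratios of these sums within each library were also compared. The ratio of the myogenic sum to the E protein sum was 75.0, 23.1 and 32.4 in dCas9-KRAB and 0.00966, 0.00148 and 0 in dCas9-KRAB-En5. The ratio of the Id sum to the E protein sum was 2.09, 0.645 and 1.28 in dCas9-KRAB and 3.86, 1.43 and 1.35 in dCas9-KRAB-En5. Its means were 1.34 ± 0.72 and 2.21 ± 1.43 (SD, n = 3), and the groups overlapped, although the dCas9-KRAB-En5 library was the higher one at each replicate number, by least in replicate 3. The direction of the means turned without Id2, when they were 0.859 and 0.638, and it also turned without Tcf3. The ratio of the Id sum to the myogenic sum was 0.0279, 0.0280 and 0.0396 in dCas9-KRAB. It was 400 in dCas9-KRAB-En5 replicate 1 and at least 720 and 400 in replicates 2 and 3, where the myogenic factors had no more than 3 counts. The deposited TPM divide each gene by all its annotated exons, 27382 bases for Tcf4 and 15529 for Tcf12 against 4039 for Tcf3, so the shares of Tcf4 and Tcf12 would be larger if the cells used shorter transcripts. The comparison of 1 gene between libraries does not depend on that length where the libraries use the same transcripts, which was not tested. Reads shared with other genes could touch few positions, since 1.60% of the 31-base words in the exons of Id2, 0.732% in Tcf12, 0.601% in Tcf4 and none in the other 7 genes occurred in another annotated gene.

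In order of mean TPM, dCas9-KRAB cells had Myog, Myod1, Tcf3, Id1, Id2, Id3, Myf5, Tcf12, Tcf4 and Myf6. The ranges of neighbours in this order overlapped, apart from Myog and Myod1, Myf5 and Tcf12, and Tcf4 and Myf6. In dCas9-KRAB-En5 the order was Id2, Tcf3, Id1, Tcf4, Id3, Tcf12, Myog, Myod1, Myf5 and Myf6. There the ranges of Id1 and Tcf4 and those of Tcf12 and Myog did not overlap, and all other neighbours did. The lowest E protein or Id value in dCas9-KRAB-En5, 0.425 TPM for Tcf12, was above the highest value of any myogenic factor there, 0.379 TPM.

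Genes around this network were read from the same fit, as counts and medians beside those of all genes, whose median log2 fold change was 0.08. E-box targets of the myogenic factors, muscle genes that they are known to activate, were mostly lower. Of 22 tested, 17 were called lower and 0 higher, against 4.67% and 1.52% of all genes. The list was written with earlier results of these data known. Only 8 of the 22 had at least 10 counts in every library, so most passed the low-count filter through dCas9-KRAB. The counts therefore describe the list and are no test of it. Their median was -10.33, or -9.70 with the 4 genes at or under 3 counts set to their bound. Chrng, the fetal subunit of the acetylcholine receptor, went from 47.1 to 112 TPM in dCas9-KRAB to at most 0.0227 TPM. Ckm, muscle creatine kinase, went from 71.8 to 88.3 TPM to at most 0.113 TPM. Mymx, a membrane fusion protein, went from 268 to 337 TPM to at most 0.184 TPM, and Mylpf, the fast skeletal regulatory light chain, from 7623 to 9994 TPM to at most 3.96 TPM. The 5 not called were Chrnb1, Cdh15, Itga7, Cdkn1a and Mef2c. Chrnb1, Cdh15 and Itga7 were still lower in every dCas9-KRAB-En5 library (log2 fold changes -3.15, -5.97 and -3.26, edgeR adjusted p = 0.0120, 0.0159 and 0.0192). They passed with the replicate block (adjusted p = 0.00155, 0.000205 and 0.000689), a fit that called 10.7% of all genes. Mef2c had 1.66 (adjusted p = 0.0586), with overlapping groups. Cdkn1a, the cell cycle inhibitor that is also induced by other pathways, had 228 to 506 TPM in dCas9-KRAB and 220 to 389 TPM in dCas9-KRAB-En5, a log2 fold change of -0.33 with a 95% interval of -1.37 to 0.71 (edgeR adjusted p = 0.665).

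Other repressors and competitors at E-boxes also included losses. Of 17 listed genes, Id4 among them, 13 were tested, with 3 called lower, against 4.67% of all genes, 0 higher and a median log2 fold change of -1.11. Heyl, a Notch target, had 1.65 to 4.10 TPM in dCas9-KRAB and 0 counts in dCas9-KRAB-En5, at least 94.0-fold lower (edgeR adjusted p = 0.000213). Msc (musculin), a repressor that pairs with E proteins, went from 0.544 to 0.829 TPM to 0 counts, at least 11.3-fold lower (adjusted p = 0.00640). Twist2, which blocks myogenic factors, had a log2 fold change of -5.31 (adjusted p = 0.00375). The call of Msc was lost without any 1 library other than dCas9-KRAB-En5 replicate 3 (adjusted p from 0.0207 to 0.0452), and that of Twist2 without any 1 control or without dCas9-KRAB-En5 replicate 2 (0.0111 to 0.0237). Hes6, which in contrast promotes muscle differentiation, had 60.8 to 89.9 TPM in dCas9-KRAB and 10.7 to 19.1 TPM in dCas9-KRAB-En5 without reaching the cutoff (-2.20, adjusted p = 0.0196). With the replicate block 6 genes of this list were called, Hes6 and Zeb1 lower and Mdfic higher in addition, in a fit that called 10.7% of all genes against 6.19% without the block.

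The other tissue-specific partners of E proteins were seldom detected. Of 17 class II bHLH factors 5 were tested and 1 was called, which is 20% of so few genes against 6.19% of all genes. Scx (scleraxis), the tendon factor, fell from 35.1 to 87.3 TPM to 0.329 to 0.441 TPM, a log2 fold change of -7.32 (edgeR adjusted p = 3.40e-05). The blood factors Lyl1 and Tal1 were read in all libraries. Lyl1 had 78.9 to 208 TPM in dCas9-KRAB and 62.6 to 119 TPM in dCas9-KRAB-En5 (log2 fold change -0.65, 95% interval -1.99 to 0.69), which was more than any E protein in the same group. Tal1 had 1.31 to 3.01 and 1.33 to 9.43 TPM (1.12, -0.06 to 2.30), and Tal2 stayed at or under 0.496 TPM (0.86, -1.15 to 2.87).

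The BMP and Smad genes that act upstream of Id transcription had 1 call among 15 tested of 23 listed, with a median log2 fold change of 0.72. That is 6.67%, near the 6.19% of all genes. Chrd (chordin), a secreted BMP antagonist, went from 2.23 to 6.12 TPM to 0.0754 to 0.209 TPM (-4.80, edgeR adjusted p = 0.00234), a call lost without dCas9-KRAB replicate 1 (0.0174) or 2 (0.0120). Smad7, an inhibitory Smad, had a log2 fold change of 2.58 (adjusted p = 0.0155), and Bmpr2, a BMP receptor, 2.41 (adjusted p = 0.0158). Both passed with the replicate block, at adjusted p = 0.00728 and 0.00647. That fit gave 3 calls in the list and called 10.7% of all genes, 3.94% as higher. Bmp4, a ligand, had 16 to 74 counts in dCas9-KRAB and 0 counts in dCas9-KRAB-En5, at least 7.30-fold lower, and missed the cutoff (adjusted p = 0.0134).

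Coactivators and chromatin partners of the myogenic factors were all tested, 22 of 22, with 2 called lower (9.09%, against 6.19% of all genes called), 0 higher and a median log2 fold change of 0.85. Smarcd3, the muscle-enriched BAF subunit that works with Myod1, went from 3.93 to 8.01 TPM to 0.203 to 0.438 TPM (-4.35, edgeR adjusted p = 0.000860). Smarcb1, a core subunit of the same remodelling complex, went from 8.07 to 25.3 TPM to 1.55 to 6.08 TPM (-2.51, adjusted p = 0.00684), and missed the cutoff without dCas9-KRAB replicate 2 or 3 or dCas9-KRAB-En5 replicate 1 or 2 (adjusted p from 0.0136 to 0.0362). Kdm1a, a histone demethylase, and Rb1, the retinoblastoma protein needed for cell cycle exit, had log2 fold changes of 1.57 (adjusted p = 0.0400) and 2.13 (adjusted p = 0.0532), with values that overlapped between the groups. Without dCas9-KRAB-En5 replicate 3, 10 genes of this list were called, 8 of them higher, in a fit that called 25.7% of all genes, 11.7% as higher.

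**Figure D4:**
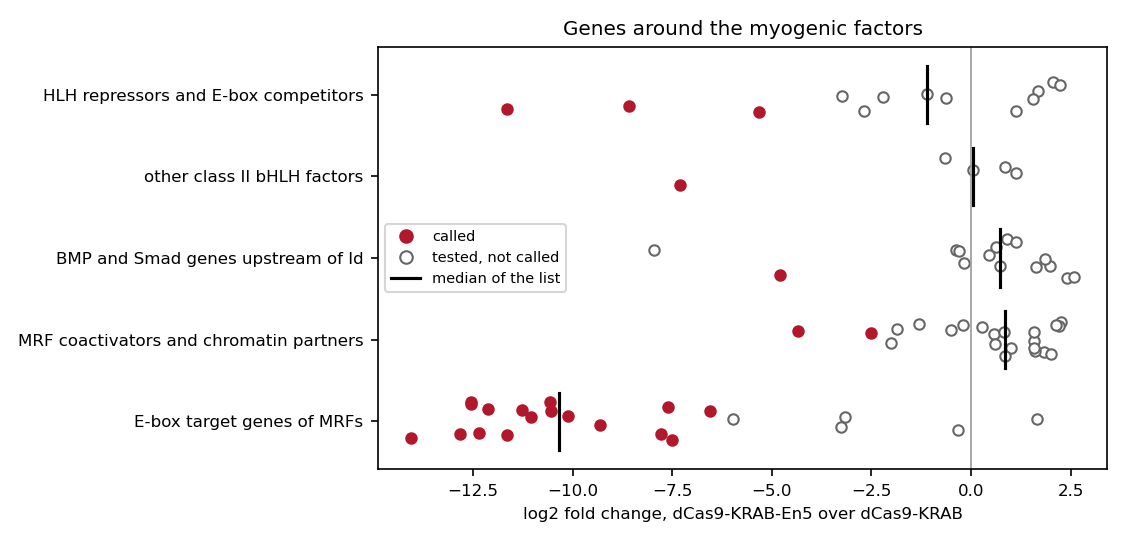
Log2 fold change of each tested gene in the 5 lists around the myogenic factors, dCas9-KRAB-En5 over dCas9-KRAB: filled points were called, open points were not, and vertical bars are list medians. The E-box targets had a median of -10.33, and the other lists had medians from -1.11 to 0.85.

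The genes whose pattern was most like that of Myog over the 6 libraries were Mymx, Csrp3, Ckm, Pdlim3 and Hfe2, by Pearson correlation of log2(CPM + 0.5) among genes whose mean was 10 CPM or more. Their r lay between 0.9995 and 0.9998. The 6 libraries form 2 clusters for Myog, so these values mainly say that each gene was high in the controls and near 0 in the other group. Csrp3, a muscle LIM protein, had 45.1 ± 1.08 TPM (SD, n = 3) in dCas9-KRAB and 0.0295 ± 0.0510 TPM in dCas9-KRAB-En5. For Id1, whose libraries did not split by group, the closest genes were C130050O18Rik, Plk3, Tfeb, Stx6 and Mrpl43, with r from 0.918 to 0.962. None of these 5 was called (edgeR adjusted p from 0.736 for C130050O18Rik to 0.993 for Plk3). All libraries shared 1 experiment, and no p-value is given for these correlations.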

How the data were processed

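RNA-Seq of 3 dCas9-KRAB and 3 dCas9-KRAB-En5 libraries was used, grouped by the sample labels. The authors aligned reads to GRCm38 with HISAT2 2.2.1, assigned them to genes with featureCounts and provided the raw counts as deposited values. The deposited TPM divide these counts by the length of all annotated exons and scale to 1000000 per library. The annotation release and strand setting are not given in the sources used here. Genes not listed in a file were taken as 0. Positions are from GENCODE M21 and promoters from RefSeq (GRCm38.p6).

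Counts were compared with edgeR 4.0.16 in R 4.3.3 (TMM, filterByExpr with a minimum count of 10 and total of 15, quasi-likelihood test, group alone in the model), with adjustment over all 14378 genes. Intervals come from the fold change, its SE and the total degrees of freedom. Alternatives were DESeq2 1.42.0, other scalings and filters, limma 3.58.1 on TPM, other cutoffs, leaving out each replicate, and a replicate block. Deviations of same-numbered libraries from their group means correlated at 0.319, 0.306 and 0.394 over the genes tested, so the numbers may pair the libraries. The mean for other pairs was -0.187. It is no separate contrast, since deviations within a group sum to 0 and positive same-numbered values force negative ones. The calls, intervals and adjusted p given without further words ignore this pairing, and values with the block are named where they change a call. The fit was tested on simulated counts, where it recovered large changes but missed most moderate ones, so a gene that missed the cutoff was not shown to be unchanged. Replicates of a group differed far beyond sampling noise (lowest chi-square over its degrees of freedom 110.2) and were kept separate.

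The 10 genes and all lists were chosen with earlier results of these data known. Named genes were the 10, at most 4 genes from each of 5 lists, taken by adjusted p, the 5 most like Myog and Id1, and macrophage markers. The other genes named were chosen after their values were seen. These were Des, Pax7, Sdc4, Pax3, Cdkn1a and list members counted as called or not. Among macrophage markers they were Lyz2, C1qa, Adgre1, Itgam, Ptprc, Cd14, Cybb, Laptm5, Fcgr1, Aif1, C1qb, Spi1 and Fcer1g. Of 18 macrophage, 12 myoblast, 10 mesenchymal, 6 endothelial and 6 adipocyte markers, 15, 10, 8, 2 and 2 were tested. Called among them were 1 macrophage gene (higher), 4 myoblast genes (lower), 1 mesenchymal gene (lower), 0 endothelial genes and 1 adipocyte gene (higher). With the replicate block Itgam, Cdh15, Itga7, Col1a2 and Pparg were also called, and Megf10 was not. No endothelial or adipocyte gene reached 10 TPM in any library.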

Additional observations from a re-analysis of the deposited data

How the results depend on the processing

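Directions of Myog, Myod1, Myf5, Tcf4, Tcf12, Id2 and Id3 were kept under every alternative that tested them. Myog and Myod1 were called in all 16. The 890 calls over all genes became 2390 in DESeq2, 586 with total counts only, 2198 with no low-count filter, 544 with at least 10 counts in every library, 1543 with the replicate block, 514 in limma on log2(TPM + 1) and 2449 at an adjusted p of 0.05, and ranged from 222 (without dCas9-KRAB replicate 1) to 3921 (without dCas9-KRAB-En5 replicate 3) when 1 replicate was left out. The 4 calls among the 10 genes became 1 (Tcf4) with at least 10 counts in every library, a filter that the myogenic factors cannot pass, and 2 (Myod1 and Myog) to 5 when 1 replicate was left out. With the replicate block Id2 was gained (5 calls), and beside it and the lists below no other call of the 10 genes changed.

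The E-box repressor list, with 3 calls, had 8 in DESeq2, 7 with no filter, 0 with at least 10 counts in every library, 6 with the replicate block, 7 at an adjusted p of 0.05 and 1 to 10 without a replicate. The BMP list, with 1, had 4, 5, 0, 3 and 5 under the same settings, 2 in limma on log2(TPM + 0.1) and 0 to 5 without a replicate. The coactivators, with 2, had 5 with no filter, 1 with total counts only, 1 in each limma fit and 1 to 10 without a replicate. The class II factors, with 1, had 1 to 2 without a replicate. The E-box targets, with 17, had 5 with at least 10 counts in every library, where 8 could be tested. They had 20 with the replicate block and 15 to 21 without a replicate. Among the fits with a replicate left out, the highest number of calls in each of these lists came without dCas9-KRAB-En5 replicate 3, and the cause was not tested.

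In CPM, which is not per length, the mean Id to E protein ratio was 0.421 in the controls and 0.523 in dCas9-KRAB-En5, and the mean myogenic to E protein ratio was 11.7 in dCas9-KRAB. Without Tcf3 the Id to E protein ratio was 20.5 in the controls and 11.4 in dCas9-KRAB-En5, which turned the direction between the groups. The myogenic to E protein ratio without Tcf3 was 615 and 0.0112. Without Id2 the Id to E protein ratio was 0.859 in the controls and 0.638 in dCas9-KRAB-En5, which also turned the direction. The Id to myogenic ratio of dCas9-KRAB-En5 without Id2 was 172. The Id to myogenic ratio of dCas9-KRAB, with a mean of 0.0318, was 0.0177, 0.0222 and 0.0237 without Id1, Id2 or Id3.

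Of the genes named by rule, 7 with estimates near 0 turned sign. Tcf3 was at 0.029 with the replicate block, 0.15 and 0.16 in limma on log2(TPM + 1) and log2(TPM + 0.1), and from -0.58 to 0.23 without a replicate. Without a replicate Id1 ranged from -0.16 (without dCas9-KRAB replicate 1) to 0.25. Plk3 was at -0.026 in DESeq2, -0.024 with its size factors, -0.019 with no filter, -0.042 with at least 10 counts in every library and -0.40 to 0.32 without a replicate. Stx6 was at 0.014 with total counts only, 0.10 and 0.11 in limma and -0.20 to 0.039 without a replicate. Without a replicate C130050O18Rik ranged from -0.10 to 0.52, Tfeb from -0.27 to 0.21 and Mrpl43 from -0.056 to 0.38. At 3 libraries a group, differences of Tcf12, Id1, Id3 and Tcf3 inside the intervals given were not detectable.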

Other observations

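Set against the macrophage marker sum of the same library, a ratio formed after the data were seen, Id2 stood at 1.66, 1.20 and 1.57 TPM per 1000 TPM of markers in dCas9-KRAB and at 7.04, 4.19 and 1.05 in dCas9-KRAB-En5. Tcf4 stood at 0.0960, 0.138 and 0.0908 and at 0.526, 0.793 and 0.0957. Lyz2 made up much of these sums. With Lyz2 left out, Id2 stood at 3.69, 1.67 and 2.50 and at 18.0, 8.49 and 3.16, and Tcf4 at 0.213, 0.192 and 0.145 and at 1.34, 1.60 and 0.288. In dCas9-KRAB-En5 replicates 1 and 2 both ratios were above all controls either way. In replicate 3 the place depended on Lyz2, with Tcf4 inside the control range with it and above that range without it, and Id2 below the range with it and inside it without it. Id1, with Lyz2 in the sum, stood at 1.35, 2.83 and 2.75 in dCas9-KRAB and 1.14, 1.81 and 0.773 in dCas9-KRAB-En5. The ratios carry no test.

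In TPM, dCas9-KRAB-En5 replicate 3 was the lowest library of its group for Tcf3, Tcf4, Tcf12, Id1 and Id2, while Id3 was lowest in replicate 2. Within dCas9-KRAB, replicate 1 was the lowest library for Myog, Myod1, Tcf3, Id1 and Id3 and the highest for Myf5, Myf6, Tcf12 and Id2. In CPM this differed for Myog, highest in dCas9-KRAB replicate 1, and for Tcf3, lowest in dCas9-KRAB-En5 replicate 1.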
